A study of Homo sapiens with 9 samples.

Results

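The GTPases of immunity-associated proteins (GIMAPs) are a family of small GTPases encoded side by side on chromosome 7, and they were followed here in ALL-SIL, an established T-cell acute lymphoblastic leukemia (T-ALL) cell line, after knockdown of PHF6, a chromatin-associated plant homeodomain protein. All probes assigned to GIMAP1, GIMAP2, GIMAP4, GIMAP5, GIMAP6, GIMAP7 and GIMAP8 were taken, which gave 7 probes, 1 per gene, of the 57176 probes on the array. Of these, 6 probes were tested, among 33595 tested probes in all, because the GIMAP4 probe was not well above background on any array. The probes were A_23_P427023 for GIMAP1, A_23_P368681 for GIMAP2, A_24_P209455 for GIMAP4, A_23_P42588 for GIMAP5, A_23_P145631 for GIMAP6, A_24_P274831 for GIMAP7 and A_24_P132383 for GIMAP8. Cells received by electroporation either control siRNA or 1 of 2 siRNAs against PHF6, called siRNA1 and siRNA2, and total RNA of 3 replicates per group was hybridized to 9 one-colour arrays. Most labels give harvest at 96 h after electroporation, whereas a free-text description gives 72 h. All 3 groups thus shared the cell line, the medium and the electroporation, and the sources used here do not say which commercial siRNA was siRNA1. As the line is a single leukemia line and the knockdown was transient, the groups describe ALL-SIL only.

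GIMAP proteins share a guanine nucleotide-binding domain that is related to the plant AIG1 protein and to the septins, and some of them are anchored to membranes inside the cell. They are known for high expression in lymphocytes, and the loss of some members in rodents leads to too few T cells. GIMAP5 sits on membranes of the late endosomal and lysosomal system and is needed for the survival of peripheral T cells in rodents. GIMAP1 is needed for mature lymphocytes in the mouse, GIMAP2 is found on lipid droplets, and GIMAP7 can stimulate the GTPase activity of GIMAP2. GIMAP6 binds GABARAPL2, a protein of the autophagy machinery. GIMAP8 carries several nucleotide-binding domains in a row, and GIMAP4 has been linked to T cell apoptosis and cytokine secretion.

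In the RefSeq gene order the family reads GIMAP8, GIMAP7, GIMAP4, GIMAP6, GIMAP2, GIMAP1, GIMAP5 and the pseudogene GIMAP3P, and GIMAP6 lies on the opposite strand to the other coding members. RefSeq also lists a readthrough gene, GIMAP1-GIMAP5, that starts at the GIMAP1 promoter, so that signal on the GIMAP1 and GIMAP5 probes cannot be told apart from readthrough transcripts. The promoters of GIMAP5 and GIMAP6 are shown because the levels of these genes lay lower on all 6 PHF6 siRNA arrays than on all 3 control arrays. The GIMAP1 promoter is shown because it is the start shared with the readthrough gene. Each sequence runs from 250 bases before to 50 bases after the RefSeq start (GRCh38.p14), 5′ to 3′ on the gene's strand. GIMAP5 is at chr7:150737168-150737467 on the plus strand, GIMAP6 at chr7:150632336-150632635 on the minus strand and GIMAP1 at chr7:150716363-150716662 on the plus strand. Capitals mark matches to the core letters of the RBPJ motif (TGGGAA) or the ETS motif (GGAAGT) on either strand.
GIMAP5: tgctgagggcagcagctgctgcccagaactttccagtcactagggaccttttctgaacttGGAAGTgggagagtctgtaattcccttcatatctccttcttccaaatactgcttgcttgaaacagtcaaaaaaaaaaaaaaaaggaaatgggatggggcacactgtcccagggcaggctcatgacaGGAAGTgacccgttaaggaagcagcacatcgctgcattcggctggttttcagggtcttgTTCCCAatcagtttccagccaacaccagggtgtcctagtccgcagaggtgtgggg
GIMAP6: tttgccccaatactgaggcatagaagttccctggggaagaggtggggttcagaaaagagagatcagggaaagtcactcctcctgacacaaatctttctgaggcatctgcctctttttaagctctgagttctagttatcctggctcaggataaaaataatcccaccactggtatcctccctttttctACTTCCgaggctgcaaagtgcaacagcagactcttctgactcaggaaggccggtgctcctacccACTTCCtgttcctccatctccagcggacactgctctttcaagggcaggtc
GIMAP1: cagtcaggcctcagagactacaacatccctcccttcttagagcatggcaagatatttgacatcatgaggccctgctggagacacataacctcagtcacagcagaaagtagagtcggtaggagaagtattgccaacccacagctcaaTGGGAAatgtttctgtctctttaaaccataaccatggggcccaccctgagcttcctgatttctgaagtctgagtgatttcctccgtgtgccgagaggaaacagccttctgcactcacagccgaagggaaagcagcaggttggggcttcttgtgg
These letters were searched in the 7 GIMAP promoters, together with the RUNX core TGTGGT and a STAT motif, TTC and GAA separated by 3 bases of any kind. The RBPJ letters, the core bound by the DNA-binding partner of NOTCH1, were found in 2 GIMAP promoters, GIMAP1 and GIMAP5, against 24.0% of all 35116 promoters in the RefSeq set. The ETS letters were found in 4, namely GIMAP4, GIMAP5, GIMAP6 and GIMAP8, against 22.8% of all promoters. GIMAP5 held the ETS letters at positions -190 and -64 and the RBPJ letters at position -5 from the start, whereas GIMAP6 held the ETS letters at -64 and at 1. The RUNX and STAT letters were in none of the 7 windows, against 13.1% and 7.66% of all promoters. The RBPJ and ETS cores can share the letters GGAA, but no matches overlapped among the 8 found in GIMAP windows. The GIMAP promoters had a median GC content of 49.7%, and all promoters one of 58.7%.

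Across the series, 29694 to 33751 probes per array were well above background, and no spot was saturated. Values are given on the generalized log2 scale of variance stabilization normalization (VSN), on which a difference of 1 is a doubling for bright probes. PHF6, the targeted gene, had a level of 11.06, 11.16 and 10.85 in control replicates 1 to 3, of 9.38, 9.68 and 9.11 with siRNA1 and of 9.19, 9.27 and 9.13 with siRNA2. Both siRNAs thus left 0.302 times the control level (log2 difference -1.73, standard error (SE) 0.14, adjusted p = 0.00276 by limma over all probes). Markers of the T lineage were detected as labelled, with 12 of 12 well above background on all arrays, and 0 of 5 fibroblast markers were.

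GIMAP5 had the largest difference of the family. Its level was 11.20, 11.27 and 11.46 in control replicates 1, 2 and 3, and 10.75, 10.51 and 10.77 with siRNA1. With siRNA2 it was 10.76, 10.81 and 11.18, so that the highest siRNA array lay just below the lowest control array and the groups did not overlap. As RNA of whole cultures was measured, fewer cells with the transcript and less transcript per cell cannot be told apart for this and the following genes. The mean level was 11.31 ± 0.13 in control cells, 10.67 ± 0.15 with siRNA1 and 10.91 ± 0.23 with siRNA2 (SD, n = 3 each).

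GIMAP6, the autophagy-linked member, had a level of 11.97, 12.06 and 11.85 in control replicates 1, 2 and 3. With siRNA1 it was 11.45, 11.13 and 11.49, and with siRNA2 it was 11.80, 11.53 and 11.75. The 3 groups were apart from each other, in that every siRNA1 array lay below every siRNA2 array and every siRNA2 array below every control array. Mean levels were 11.96 ± 0.11, 11.35 ± 0.20 and 11.69 ± 0.14 for control, siRNA1 and siRNA2.

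GIMAP1 had levels of 12.16, 12.38 and 12.01 in control replicates 1, 2 and 3, and of 11.80, 11.74 and 11.77 with siRNA1. With siRNA2 the levels were 11.82, 12.07 and 11.97. All siRNA1 arrays thus lay below all control arrays, whereas the highest siRNA2 array lay above the lowest control array. The siRNA1 arrays differed little among themselves (11.77 ± 0.03), compared with 12.18 ± 0.19 for control and 11.95 ± 0.13 for siRNA2.

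GIMAP2, the lipid droplet member, had levels of 12.95, 13.43 and 12.75 in control cells, of 12.74, 12.71 and 12.43 with siRNA1 and of 13.17, 12.84 and 12.93 with siRNA2. Only the siRNA1 arrays lay apart from the control arrays, and only just, with the highest at 12.738 and the lowest control array at 12.746. The means were 13.04 ± 0.35, 12.63 ± 0.17 and 12.98 ± 0.17 for control, siRNA1 and siRNA2. The control and siRNA2 means differed by less than the spread within either group.

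GIMAP7, which acts on GIMAP2, had levels of 13.02, 13.54 and 13.34 in control cells, of 12.70, 12.87 and 13.14 with siRNA1 and of 12.97, 12.84 and 13.62 with siRNA2. All 3 groups overlapped, and the siRNA2 array of replicate 3 was the highest of the 9. The means were 13.30 ± 0.26, 12.90 ± 0.22 and 13.14 ± 0.42.

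GIMAP8 was dim, with a median fluorescence intensity of 44.0 to 70.0, although its spots were well above background on all 9 arrays. Its level was 5.62, 5.93 and 5.71 in control cells, 5.26, 5.19 and 5.67 with siRNA1 and 5.33, 5.10 and 5.69 with siRNA2. In replicate 3 the siRNA arrays were close to their control, and in replicates 1 and 2 they were below it. The means were 5.75 ± 0.16, 5.37 ± 0.26 and 5.37 ± 0.30. GIMAP4 gave an intensity of 27.0 to 37.0, where the negative control spots of the arrays had medians of 23.0 to 27.5. Its VSN values were 4.44 to 4.70 in control cells, 4.03 to 4.36 with siRNA1 and 4.14 to 4.22 with siRNA2. As none of these spots was well above background, no difference is given for GIMAP4. The values of this undetected probe lay lower on the siRNA arrays too, and whether the dim GIMAP8 probe shares that shift was not tested.

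To describe the family under PHF6 knockdown, both siRNAs were set against control in a limma fit over all tested probes. All 6 tested GIMAP genes were lower with PHF6 siRNA than with control siRNA, with a median log2 difference of -0.35 and a range of -0.52 to -0.24. Over all tested probes the median was -0.001 and 50.2% lay below 0. None of the 6 differences passed the adjusted threshold of 0.05 (adjusted p = 0.599 to 0.787), and 3 of all probes did (0.00893%). At an unadjusted p under 0.05 there were 4 of the 6 GIMAP genes, and 7.38% of all probes, and with the block introduced next 4 of 6 and 21.6%. Since the family was proposed with earlier results of these arrays known, these values describe the genes and are not evidence of their direction.

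The replicate numbers paired the arrays. When the number entered the fit as a block, 1 of the 6 genes passed, GIMAP5, at an adjusted p of 0.0287 by limma. It no longer passed when replicate 1, 2 or 3 was left out of that fit (adjusted p = 0.165, 0.138 and 0.0746). With all replicates 832 of all probes passed (2.48%), 272 of them lower (0.81%). GIMAP5 was at 0.699 times its control level, a log2 difference of -0.52 with a 95% interval of -0.82 to -0.22 without the block and of -0.73 to -0.31 with it. GIMAP6 was at 0.74 times its control level (log2 difference -0.43, SE 0.13 without the block and 0.10 with it), and its adjusted p with the block was 0.0627. Without the block GIMAP8, whose probe was near background, differed by -0.38 (SE 0.16), GIMAP1 by -0.32 (SE 0.12), GIMAP7 by -0.28 (SE 0.19) and GIMAP2 by -0.24 (SE 0.16). For these 4 genes the adjusted p with the block was 0.101 to 0.324. GIMAP5 and GIMAP6 were the 2 of 6 genes whose 6 siRNA arrays all lay below the 3 control arrays, which held for 2.07% of all tested probes.

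The siRNAs were then taken singly, both against the same 3 control arrays. With siRNA1 the 6 genes were lower by a median log2 difference of -0.41, and with siRNA2 by one of -0.25, while the medians over all probes were -0.005 and 0.007 and 51.1% and 48.7% of them lay below 0. With siRNA1 the differences ran from -0.64 for GIMAP5 and -0.60 for GIMAP6 to -0.38 for GIMAP8. In 4 of 6 genes, GIMAP1, GIMAP2, GIMAP5 and GIMAP6, the siRNA1 arrays lay below all control arrays, in GIMAP2 only just (5.86% of all probes). Without the block no GIMAP gene passed by limma (lowest adjusted p = 0.629, with 0.00893% of all probes called). With it 1 did, GIMAP5, at an adjusted p of 0.0421 (0.114 to 0.26 without 1 replicate number), and GIMAP6 stood at 0.0597 (0.756% of all probes called, 0.366% lower). At an unadjusted p under 0.05 there were 3 of 6 genes and 5.93% of all probes without the block, and 6 of 6 genes and 6393 of all 33595 probes with it.

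With siRNA2 the differences ran from -0.40 for GIMAP5 and -0.38 for GIMAP8 to -0.16 for GIMAP7 and -0.06 for GIMAP2. Arrays of siRNA2 lay below all control arrays in 2 of 6 genes, GIMAP5 and GIMAP6 (5.33% of all probes). By limma none of the 6 passed with or without the block (lowest adjusted p = 0.0998 and 0.827, where 1.34% and 0.0119% of all probes passed). At an unadjusted p under 0.05 there were 1 of 6 genes and 5.88% of all probes without the block, and 2 of 6 genes and 19.3% of all probes with it. For GIMAP2 and GIMAP7 the 95% intervals, -0.48 to 0.36 and -0.65 to 0.34, held differences in both directions.

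**Figure D1:**
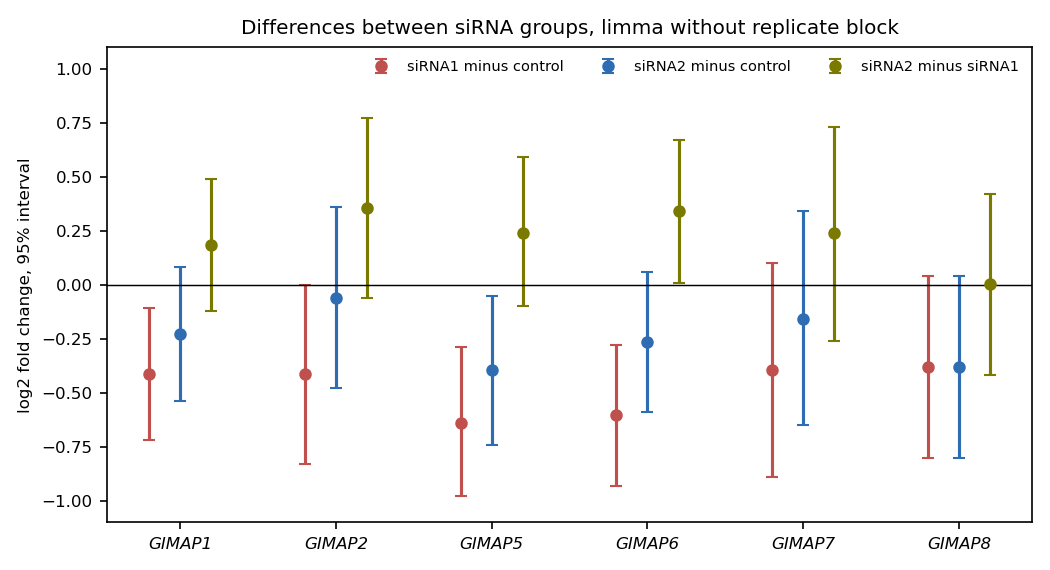
Log2 fold change (y axis) of the 6 tested GIMAP genes (x axis) for siRNA1 minus control, siRNA2 minus control and siRNA2 minus siRNA1, with points for the estimates and bars for 95% intervals from limma without the replicate block. All siRNA minus control estimates lie below 0, and the siRNA2 minus siRNA1 estimates run from 0.001 for GIMAP8 to 0.35 for GIMAP2.

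The siRNAs were also compared with each other directly. Levels were higher with siRNA2 than with siRNA1 in 6 of 6 genes, where 51.9% of all probes lay above 0, by a median log2 difference of 0.24. The difference was 0.35 for GIMAP2 (95% interval -0.06 to 0.77), 0.34 for GIMAP6 (0.01 to 0.67), 0.24 for both GIMAP5 (-0.10 to 0.59) and GIMAP7 (-0.26 to 0.73), and 0.18 for GIMAP1 (-0.12 to 0.49). GIMAP8 did not separate the siRNAs, at 0.001 with an interval of -0.42 to 0.42. In GIMAP1, GIMAP2 and GIMAP6, 3 of 6 genes, all siRNA2 arrays lay above all siRNA1 arrays, against 3.46% of all probes. None of the 6 passed by limma without the block, where 0 of all probes did (0.0%), or with it (adjusted p = 0.461 to 0.999, 0.0357% of all probes called). The counts at an unadjusted p under 0.05 were 1 of 6 genes and 2.51% of all probes without the block, and 2 of 6 genes and 9.56% of all probes with it. PHF6 itself was lower with siRNA2 than with siRNA1 by -0.19 (95% interval -0.56 to 0.17), so that the order of the siRNAs was opposite to that of the GIMAP estimates, within an interval that holds 0. The mean of the 6 genes, each centred on its own mean over 9 arrays, was 0.24 ± 0.15 in control cells, -0.01 ± 0.17 with siRNA2 and -0.23 ± 0.10 with siRNA1. The siRNA1 arrays were apart from control (-0.33 to -0.14 against 0.14 to 0.42), and the siRNA2 arrays (-0.15 to 0.17) overlapped the control arrays.

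Within replicate numbers, GIMAP1, GIMAP5, GIMAP6 and GIMAP8 were below their own control on 6 of 6 siRNA arrays, GIMAP7 on 5 and GIMAP2 on 4 (10.9% of all probes were below on all 6). With siRNA1 all 3 arrays were below their own control in 6 of 6 genes (23.4% of all probes), and with siRNA2 in 4 of 6 (17.9%). In GIMAP1, GIMAP2, GIMAP5 and GIMAP6 the siRNA2 array was above the siRNA1 array in every replicate number (20.5%). In each of the 6 genes the mean of the siRNA arrays was farthest below control in replicate 2, which was the case for 36.2% of all probes. GIMAP5 differed least between replicates, with differences of -0.45, -0.61 and -0.49 in replicates 1, 2 and 3. GIMAP6 differed by -0.34, -0.73 and -0.23, and GIMAP1 by -0.35, -0.47 and -0.14. GIMAP8 differed by -0.33, -0.79 and -0.03, so that replicate 3 added almost nothing.

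GIMAP7 differed by -0.18, -0.69 and 0.04, and GIMAP2 by 0.01, -0.66 and -0.06, so that both means over the siRNAs rested on replicate 2. With siRNA1 alone GIMAP2 differed by -0.209, -0.722 and -0.315 in replicates 1, 2 and 3, and GIMAP7 by -0.318, -0.672 and -0.2. With siRNA2 alone GIMAP2 differed by 0.221, -0.59 and 0.186, and GIMAP7 by -0.05, -0.703 and 0.278. For both siRNAs together, as in the rest of this paragraph, the family median was -0.21 without replicate 2 in the blocked fit. GIMAP2 and GIMAP7 then stood at -0.03 and -0.07. The siRNA1 array of replicate 2 had the fewest probes well above background of all arrays (29694) and the control array of replicate 2 the next fewest (30221). Without that control array, in the fit with no block, GIMAP2 stood at -0.04 and GIMAP7 at -0.16. Without that siRNA1 array they stood at -0.26 and -0.27, close to their values on all arrays. Replicates 1 and 2 lay on slide 1 and replicate 3 on slide 2. On slide 1 all 6 genes were lower, with a median of -0.48 and a range of -0.56 to -0.32. On slide 2, where each group had 1 array and no test was possible, 5 of 6 were lower and GIMAP7 was higher by 0.04. With the slide as a block none passed by limma (lowest adjusted p = 0.0944).

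The replicate number by itself was tested across all probes with the siRNA group in the model. Earlier results known when the family was proposed may have favoured genes with little spread between replicates, so that the counts are descriptive. By this F test in limma 11638 of all probes varied between replicate numbers (34.6%), and none of the 6 GIMAP genes did (adjusted p = 0.0953 to 0.484, with GIMAP7 at an unadjusted p of 0.0445). The siRNA group held 79.7% of the sum of squares of GIMAP6, 77.3% of that of GIMAP5 and 71.3% of that of GIMAP1. It held 45.4% for GIMAP2, 44.1% for GIMAP8 and 29.0% for GIMAP7, and the median over all probes was 19.9%. These shares restate the siRNA differences of a family proposed with earlier results of these arrays known, and only describe the genes. For GIMAP7 the replicate number held more than the group (40.7%), and the replicate means of this gene were 12.90, 13.08 and 13.37.

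The members were set against each other over the 9 arrays, which share the 3 groups and the 3 replicate numbers. All 15 pairs had a Pearson r above 0, from 0.31 for GIMAP2 with GIMAP8 to 0.86 for GIMAP7 with GIMAP8 (median 0.69). After subtraction of each replicate number's mean, r ran from 0.70 for GIMAP2 with GIMAP5 to 0.94 for GIMAP1 with GIMAP6 (median 0.81). The siRNA group differences remained in these values, so that genes lower in the same groups correlate by that alone. Pairs outside the family were not computed, and r is no separate result about the members. Of 13237 genes outside the family, the mean of the 6 members was most like NDUFS3, a subunit of respiratory complex I (r = 0.986), SUB1, a transcriptional coactivator (r = 0.966) and SLC17A5, a lysosomal sialic acid transporter (r = 0.955). GIMAP5 was most like HNRNPAB, an RNA-binding protein (r = 0.95), and GIMAP6 most like KEAP1, the adaptor that marks NRF2 for degradation (r = 0.974). With the replicate means removed the genes most like the family mean were LBHD1, ELAC2 and PIK3C2B (r = 0.992 to 0.997), none of which was among those named for the values as measured. With 9 arrays and so many genes compared, values of this size describe likeness on these arrays only.

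Genes that flank the cluster on chromosome 7 were looked at to see how neighbours behaved. Of 16 tested flanking genes 7 were lower and 9 higher with both siRNAs, with a median log2 difference of 0.01, and none passed with or without the block. The largest differences were 0.26 for ZNF767P, a zinc finger pseudogene, and 0.22 for ACTR3C, an actin-related protein gene (SE 0.12 and 0.22).

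Among 14 genes for reported protein partners of GIMAPs and their close relatives, in the BCL2, autophagy and GSK3B groups, 9 were lower and 5 higher (median -0.04), and none passed. The largest difference, -0.50 (SE 0.22), was that of BAX, the pore-forming protein of apoptosis, with levels of 12.01 ± 0.29 in control cells, 11.34 ± 0.57 with siRNA1 and 11.68 ± 0.10 with siRNA2. GABARAPL2, the partner of GIMAP6, differed by -0.21 (SE 0.13 and adjusted p = 0.756 without the block, 0.227 with it, by limma). Of 9 tested septins 6 were lower and 3 higher (median -0.02), with SEPTIN9 at -0.21 and SEPTIN1 at -0.13, and none passed.

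Genes of naive and quiescent T cells, in which GIMAP genes are highly expressed, lay on both sides of 0, with 7 of 15 lower and 8 higher (median 0.01). None passed without the block. With it 3 rose, IL7R, the receptor for interleukin 7, by 1.27 (SE 0.15, limma adjusted p = 0.00784), KLF2, the quiescence factor, by 0.84 (SE 0.12, adjusted p = 0.015) and BACH2, a repressor of effector genes, by 0.58 (SE 0.11, adjusted p = 0.0348). Without the block their adjusted p was 0.35 to 0.649. With the block 832 of all probes were called (2.48%), 560 of them higher. The calls of this and the following lists were not repeated without 1 replicate number. KLF2 was at 8.82 ± 0.02 in control cells, 9.71 ± 0.37 with siRNA1 and 9.60 ± 0.20 with siRNA2.

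Of 16 tested candidate regulators of T-lineage expression 11 were lower and 5 higher (median -0.06). None passed without the block, and with it STAT5A, a signal transducer downstream of cytokine receptors, fell by 0.42 (log2, SE 0.08, limma adjusted p = 0.0382, and 0.649 without the block). With the block 0.81% of all probes were called lower. NOTCH1 had the largest difference of the list, at -0.44 (with the block SE 0.10 and limma adjusted p = 0.0581, and 0.627 without it). TAL1 and LMO2 were well above background on none of the arrays.

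Markers of cell types were compared beside the family. Of the 12 T-lineage markers 10 were lower with both siRNAs (median -0.10), with the mean level of the list at 12.48 to 12.81 on control, 12.29 to 12.55 on siRNA1 and 12.38 to 12.56 on siRNA2 arrays. With the block CD7 fell by 0.76 and PTCRA, the pre-T cell receptor alpha chain, by 0.73 on the log2 scale (limma adjusted p = 0.015 and 0.0102, and 0.599 and 0.649 without the block). In that fit 0.81% of all probes were called lower. The 2 markers that were not lower were CD1A, at 0.71 (adjusted p with the block = 0.0792), and CD2, at 0.14, and they are named because of their sign. Of 5 natural killer markers 3 were well above background on all arrays, while NCAM1 and KLRD1 were on none. Here GNLY, encoding granulysin, fell by 0.56 and NKG7 by 0.43 with the block (adjusted p = 0.0277 and 0.0328, and 0.603 and 0.625 without it). The third marker, NCR1, was higher by 0.17 and did not pass, and the list's mean level was 7.16 to 7.17 on control, 6.79 to 7.18 on siRNA1 and 6.94 to 7.20 on siRNA2 arrays. This mean includes NCAM1 and KLRD1, whereas NKG7 alone was bright, at 15.19 in control cells.

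Endothelial cells also use GIMAP genes. Of their 5 markers 3 were well above background on all arrays, among them PECAM1, a platelet and endothelial adhesion molecule that lymphocytes express as well, and TEK on none. PECAM1 differed by -0.37 (SE 0.10 and adjusted p = 0.0733 with the block, by limma). CDH5 differed by -0.16 and VWF by 0.04, and none of these 3 passed with or without the block. The mean level of the list was 6.31 to 6.78 on control, 6.23 to 6.33 on siRNA1 and 6.18 to 6.27 on siRNA2 arrays. Of 6 B-lineage markers 3 were well above background on all arrays and CD22 on none. The mean level of these markers was 7.08 to 7.21 on control, 6.99 to 7.25 on siRNA1 and 6.95 to 6.98 on siRNA2 arrays, and CD79B fell by 0.48 with the block (adjusted p = 0.0458, and 0.725 without it). In the blocked fit 0.81% of all probes were called lower. The mean level includes undetected markers, and CD79A alone was at 12.5 in control cells. The monocyte list ranged from 5.68 to 5.80 and the erythroid list from 7.05 to 7.52 over all arrays, with no gene past the threshold and HBB well above background on none. The part of these markers in the GIMAP differences was not tested.

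The differences of both siRNAs from control were recomputed under 19 other settings of normalization, filter, block and arrays. In 4 of these, the blocks by replicate number or slide and the changed filters, the fold changes cannot differ from those given above. In the other 15 all 6 genes were again lower, and the family median lay between -0.48 and -0.21. GIMAP5 ranged from -0.58 to -0.44, GIMAP6 from -0.54 to -0.29 and GIMAP1 from -0.41 to -0.22. GIMAP2 ranged from -0.39 to -0.03, GIMAP7 from -0.44 to -0.07 and GIMAP8 from -0.56 to -0.18.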

How the data were processed

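Total RNA of ALL-SIL cells, 3 replicates in each of 3 siRNA groups, was profiled on 9 one-colour (Cy3) custom Agilent arrays. The authors deposited the fluorescence intensity of each spot as read by Feature Extraction (10.5.1.1 per the file headers, 9.1 in the submitters' processing notes), with flags per spot, and a table of log2 values that they normalized with VSN. Since the vsn package was not used, its model was fitted by separate code to the median intensity without background subtraction (7 iterations, trimming quantile 0.9). The deposited values correlated with these at 0.9936 to 0.9989 per array (medians 5.35 to 5.56 against 5.02 to 5.22), so that their scale and direction are the same, and which intensity entered them is not stated. Outlier spots were left out and repeated spots averaged. Tests were run on probes that stood well above background on 3 or more arrays, in R 4.3.3 with limma 3.58.1, all groups sharing one estimate of the spread, with Benjamini-Hochberg adjustment over all tested probes at 0.05. The fit was also run on simulated data with planted changes. As the outcome is not given here, no check is claimed for differences of the size seen in the GIMAP genes. The number of arrays limits the precision.

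Probes were named by matching their transcript identifiers to RefSeq (25729 of 57176 probes matched, GRCh38.p14 for names and promoters only, as the arrays were annotated on another build). Each GIMAP gene had 1 probe, so that averaging the probes of a gene changes nothing. The labels do not say whether replicates were separate cultures, and the study's methods call them independent samples. The replicate numbers come from the labels. Deviations from the group means correlated at 0.30 to 0.72 in the 9 pairs of arrays with the same number and at -0.55 to 0.13 in the 18 pairs with different numbers, so that the numbers were taken to pair the arrays. The fit without a block follows the study's methods, which name none.

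The members, the gene lists and the tests were chosen with earlier results of these data known. All GIMAP genes and PHF6 were named, and from each list the genes past the threshold with or without the block, otherwise the 2 with the largest difference. Outside this rule NOTCH1 was named for the largest difference of its list, and some genes for their sign, level or detection. The lists were genes flanking the cluster, reported partners, septins, naive T cell genes, T-lineage regulators and cell type markers. Alternatives were the replicate number or slide as a block, the 75th percentile of the processed signal, normexp (offset 50) with quantile normalization, the deposited table, either no filter on dim probes or one requiring signal on all 9 arrays, and leaving out each array or replicate number.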

Additional observations from a re-analysis of the deposited data

How the results depend on the processing

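With the replicate number as a block, 832, 254, 451 and 12 of all probes were called for both siRNAs, siRNA1 and siRNA2 against control and siRNA2 against siRNA1, where 3, 3, 4 and 0 were called without it. GIMAP genes called went from 0 to 1 for both siRNAs and for siRNA1, and no other count of GIMAP calls moved under any setting run. The slide as a block gave 17, 11, 9 and 6 probes, the 75th percentile of the processed signal 5, 6 and 2 against control, normexp with quantile normalization 5 for both siRNAs, and the filter on all 9 arrays 6 for siRNA1 and 4 between the siRNAs. Leaving out 1 array gave 0 to 3, 0 to 6, 0 to 4 and 0 to 10 probes, and the blocked fit without 1 replicate number 5 to 582, 3 to 97, 3 to 244 and 0 to 21, with 32 and 22 for both siRNAs and siRNA1 without replicate 1. Among these, 0 probes were called for both siRNAs without control replicate 2, where PHF6 stood at -1.66 (-1.82 to -1.66 without 1 array) with an adjusted p of 0.0527, its one value past 0.05 (range over the settings 0.000121 to 0.0527). Without a filter the count for the replicate number was 6545, where it was 11638 with it. The cause of these shifts was not tested.

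Directions turned only in comparisons of single siRNAs. On all arrays these stood at -0.06 for GIMAP2 and -0.16 for GIMAP7 with siRNA2 against control. For GIMAP8 between the siRNAs the value was 0.001. GIMAP2 with siRNA2 against control was 0.13 without control replicate 2, 0.01 without siRNA2 replicate 2 and 0.20 in the blocked fit without replicate 2 (-0.21 to 0.13 without 1 array), where GIMAP7 was 0.11. GIMAP8 between the siRNAs was -0.06 without siRNA1 replicate 1, -0.09 without siRNA1 replicate 2, -0.16 without siRNA2 replicate 3 (-0.16 to 0.15 without 1 array), and -0.037 and -0.007 in the blocked fit without replicates 1 and 3. GIMAP5 with the block was called only with all 3 replicate numbers, since leaving out any of them left the lowest adjusted p of the family for both siRNAs at 0.0746 or higher. The number of arrays per group limits the precision of all values, and GIMAP8 and GIMAP4 were near the background signal.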
